A study of Mus musculus with 16 samples.

Results

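The open chromatin of induced pluripotent stem cells (iPSC), the end point of a chemical reprogramming course, was set against that of the mouse embryonic fibroblasts (MEF) it began with, day 0. Regions were formed from the peaks of the iPSC list and the day 0 list on chromosomes 1 to 19, X and Y, joining all peaks that overlapped by at least 1 bp, which gave 82138 regions. All 8 lists of the series, joined in the same way, formed 165616. Each region was iPSC-only, day 0-only or shared, and shared regions were compared by the rank of their summit enrichment and by their width.

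The iPSC (2 samples, named riPSC in the labels) had been kept on feeder cells in N2 and B27 medium with mLIF at 1000 units/mL, 3 µM CHIR99021, an inhibitor of glycogen synthase kinase, and 0.2 µM PD0325901, an inhibitor of the kinase that activates ERK. The day 0 MEF (2 samples) had been grown in DMEM with 10% FBS. All 4 samples go back to mid-gestation embryos of a 129XOG2 cross, in which the OG2 parent brings a transgene that places green fluorescent protein under Pou5f1 regulatory sequence. Libraries were made by ATAC-seq from 100000 cells, with Tn5 transposase cutting accessible DNA. The share of feeder cells among the collected iPSC, and whether samples of a stage came from separate cultures, remain unknown here. The 2 samples of a stage stand behind a single deposited peak list, so no spread between replicates could be had and no test was made. Ranges given after a share are Clopper-Pearson intervals at 95% and cover counting error only.

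Fibroblasts are mesenchymal cells, which secrete collagens and hold a contractile actin skeleton, and their enhancers are rich in sites of AP-1, a dimer of FOS and JUN proteins. To become pluripotent they turn epithelial, a switch held back by the repressors ZEB and SNAI, which bind the E-box CAGGTG at epithelial genes. Pluripotent cells rest on a circuit of POU5F1, SOX2, NANOG and ESRRB and make their own microRNAs. Germline genes with CpG-rich promoters are kept silent in somatic cells by DNA methylation and by complexes that hold MGA, a protein of the E-box CACGTG. Culture with inhibitors of both kinases is known to lower DNA methylation.

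The microRNAs below are shown because their loci were open in one of the end points alone, given as RefSeq mature sequences (GRCm38.p6) with the seed, bases 2 to 8, in capitals. The first 4 come from hairpins near a peak of the iPSC list alone and share the seed AAGUGCU, although they lie in clusters on different chromosomes, miR-302/367 on 3 and miR-290 on 7.
miR-302b-3p: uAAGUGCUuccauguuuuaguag
miR-302d-3p: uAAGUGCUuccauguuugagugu
miR-294-3p: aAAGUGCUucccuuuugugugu
miR-295-3p: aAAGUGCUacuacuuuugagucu
The next pair, of the epithelial miR-200 family, shares the seed AAUACUG and came from hairpins near an iPSC peak alone.
miR-200b-3p: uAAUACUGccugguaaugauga
miR-200c-3p: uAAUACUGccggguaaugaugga
The last pair marks mesenchymal cells and has hairpins near a day 0 peak alone.
miR-199b-3p: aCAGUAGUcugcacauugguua
miR-214-3p: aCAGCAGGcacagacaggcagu

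The promoter windows below run from 250 bases before to 50 after a RefSeq start on GRCm38.p6, the patch release of the build mm10, and are written in the direction of the gene. They were picked after the values were seen, to show one motif each for the germline, epithelial, pluripotency, fibroblast and contractile lists. A window was counted as open in a list where a peak of that list overlapped it. In Mael, chr1:166238695-166238994 on the minus strand, and Slc25a31, chr3:40708621-40708920 on the plus strand, germline genes open in iPSC alone, capitals mark the palindromic E-box CACGTG.
Mael: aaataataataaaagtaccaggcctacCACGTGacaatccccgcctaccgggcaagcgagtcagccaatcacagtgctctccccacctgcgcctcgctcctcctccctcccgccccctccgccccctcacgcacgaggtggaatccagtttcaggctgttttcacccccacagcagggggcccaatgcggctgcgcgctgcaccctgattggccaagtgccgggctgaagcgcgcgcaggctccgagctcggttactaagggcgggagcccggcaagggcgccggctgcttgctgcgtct
Slc25a31: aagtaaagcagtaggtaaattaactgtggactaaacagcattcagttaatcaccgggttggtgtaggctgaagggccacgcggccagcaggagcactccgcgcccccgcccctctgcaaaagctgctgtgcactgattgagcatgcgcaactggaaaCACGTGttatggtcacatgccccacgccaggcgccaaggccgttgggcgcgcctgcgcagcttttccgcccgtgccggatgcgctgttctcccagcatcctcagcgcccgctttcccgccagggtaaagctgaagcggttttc
In Krt18, a keratin of simple epithelia at chr15:102027966-102028265 on the plus strand, and Cldn4, a tight junction claudin at chr5:134946885-134947184 on the minus strand, both open in iPSC alone, capitals mark the E-box CAGGTG or its reverse complement CACCTG.
Krt18: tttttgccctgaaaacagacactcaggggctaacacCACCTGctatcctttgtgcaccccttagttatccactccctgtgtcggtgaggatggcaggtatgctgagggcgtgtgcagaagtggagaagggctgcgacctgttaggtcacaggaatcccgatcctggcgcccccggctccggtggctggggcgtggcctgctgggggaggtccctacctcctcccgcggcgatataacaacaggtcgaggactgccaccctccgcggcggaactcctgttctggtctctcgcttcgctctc
Cldn4: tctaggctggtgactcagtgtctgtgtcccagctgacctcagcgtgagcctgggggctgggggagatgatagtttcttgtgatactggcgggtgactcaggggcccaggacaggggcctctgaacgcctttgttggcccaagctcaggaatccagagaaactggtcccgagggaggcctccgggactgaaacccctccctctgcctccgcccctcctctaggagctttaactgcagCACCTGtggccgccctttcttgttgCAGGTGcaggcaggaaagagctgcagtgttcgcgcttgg
In Zfp42, also called Rex1 and a marker of naive pluripotency, at chr8:43306960-43307259 on the minus strand and open in iPSC alone, capitals mark the octamer ATGCAAAT bound by POU factors, here as its reverse complement.
Zfp42: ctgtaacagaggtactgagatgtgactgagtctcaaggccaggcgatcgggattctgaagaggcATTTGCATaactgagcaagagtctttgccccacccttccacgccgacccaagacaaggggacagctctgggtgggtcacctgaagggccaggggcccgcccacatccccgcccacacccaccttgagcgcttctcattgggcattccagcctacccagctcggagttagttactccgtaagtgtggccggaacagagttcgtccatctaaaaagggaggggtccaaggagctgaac
In Col6a1, a collagen at chr10:76725995-76726294 on the minus strand, and a start of Mrtfb, a coactivator of serum response factor, at chr16:13358171-13358470 on the plus strand, both overlapped by a day 0 peak alone, capitals mark the AP-1 site TGANTCA. A weak iPSC peak lay next to the Mrtfb window, within 1 kb of the start.
Col6a1: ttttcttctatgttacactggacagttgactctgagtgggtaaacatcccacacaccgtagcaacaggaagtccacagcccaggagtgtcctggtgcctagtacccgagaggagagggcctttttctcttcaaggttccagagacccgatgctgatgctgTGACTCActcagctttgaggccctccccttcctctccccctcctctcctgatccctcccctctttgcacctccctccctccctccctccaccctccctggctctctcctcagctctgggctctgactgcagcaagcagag
Mrtfb: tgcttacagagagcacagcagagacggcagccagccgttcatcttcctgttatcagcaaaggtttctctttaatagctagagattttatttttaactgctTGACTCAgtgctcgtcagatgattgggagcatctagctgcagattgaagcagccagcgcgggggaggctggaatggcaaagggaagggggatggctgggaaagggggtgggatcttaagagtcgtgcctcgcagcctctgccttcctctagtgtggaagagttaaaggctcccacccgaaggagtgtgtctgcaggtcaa

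The lists were of like size. The iPSC list held 49468 peaks on these chromosomes, which covered 34.5 Mb with a median width of 609 bp, and the day 0 list held 49632 peaks, 34.1 Mb and 601 bp. Read totals are not in the peak lists. The pileup, the number of reads or fragments over the summit base, was recovered from each peak's enrichment and p-value, and its median was 21 in iPSC and 23 at day 0. The genome-wide background pileup was 1.90 in iPSC and 1.96 at day 0. The lowest pileup of a peak was 8 in both lists, and an exact Poisson interval runs from 4.80 to 18.4 about a pileup of 10 and from 37.1 to 65.9 about 50. Of the 7 pluripotent markers, 6 had a peak within 1 kb of the gene start in iPSC and 4 at day 0. Their summed pileups were 1204 in iPSC and 88 at day 0. Pou5f1, where reads of the OG2 transgene cannot be told apart, gave 866 of the 1204. Of the 9 fibroblast markers, 5 had such a peak in iPSC and 8 at day 0, with summed pileups of 103 in iPSC and 304 at day 0. The markers thus followed the labels in sum, while fibroblast markers were not without peaks in iPSC. The part of feeder cells in these values was not tested.

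Most of the open chromatin of an end point was its own. There were 32702 iPSC-only regions, 39.8% of all, and 32786 day 0-only regions, 39.9% of all. The 16650 shared regions made up 33.7% of the iPSC regions (33.3 to 34.2%) and 33.7% of the day 0 regions (33.3 to 34.1%). Shared regions were the stronger ones, with a median pileup of 31 in iPSC and 33 at day 0, while the median was 18 in iPSC-only and 19 in day 0-only regions. Among iPSC regions the shared portion grew from 12.8% in the 25% of lowest pileup to 60.0% in the 25% of highest pileup. Among day 0 regions it grew likewise, from 14.6% to 58.8%. A unique region of low pileup is therefore not shown to be closed in the other end point.

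Gene starts were mostly shared and distal regions mostly were not. A region lay within 1 kb of a protein-coding gene start in 7.59% of iPSC-only regions (7.30 to 7.88%), in 5.17% of day 0-only regions (4.94 to 5.42%) and in 61.7% of shared regions (61.0 to 62.5%). Gene bodies held 45.5% of iPSC-only, 48.2% of day 0-only and 18.8% of shared regions. The ground between genes held 46.9% of iPSC-only, 46.6% of day 0-only and 19.5% of shared regions. The 2 unique classes were thus placed much alike, with a somewhat larger share at gene starts among the iPSC-only regions.

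**Figure D1:**
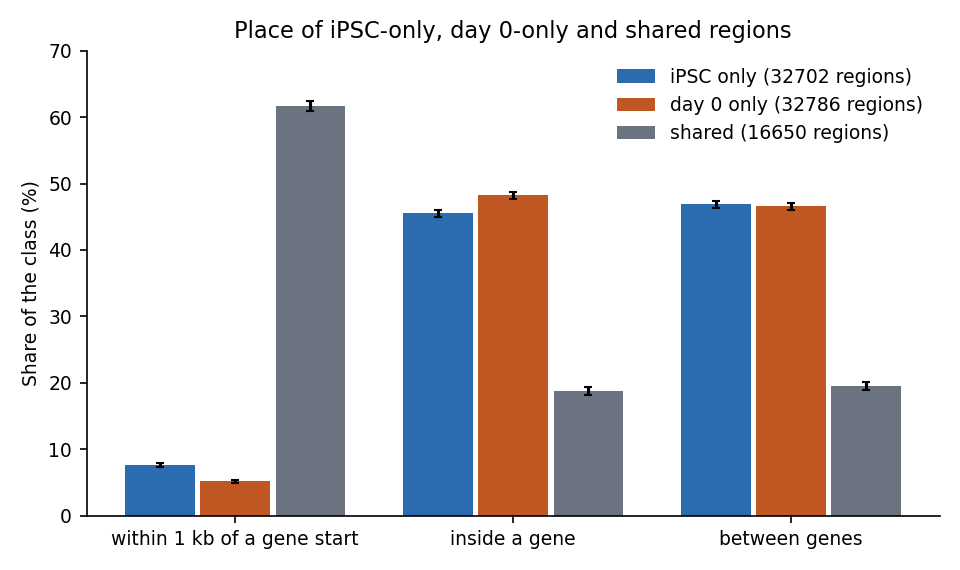
Share of iPSC-only, day 0-only and shared regions (percent of each class, y axis) within 1 kb of a gene start, inside a gene or between genes (x axis), with exact 95% intervals as bars on the columns. Shared regions lay at gene starts in 61.7%, against 7.59% of iPSC-only and 5.17% of day 0-only regions.

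Of 21883 protein-coding genes, 1767 had a peak within 1 kb of the start in iPSC alone (8.07%), 989 at day 0 alone (4.52%) and 11207 in both lists (51.2%). For 4392 genes no start is listed in the table used here and either end of the gene was taken in its place. Such ends are counted among the starts below. The lists of genes below are read against these shares.

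Pluripotency genes had their starts open in iPSC alone in 14 of 30 cases, against 8.07% of all genes. These were Pou5f1, Nanog, Nr5a2, Zfp42, Prdm14, Dppa2, Dppa4, Dppa5a, Utf1, Nr0b1, Tdgf1, Dnmt3l, Gdf3 and L1td1. The highest pileup was at Pou5f1, the POU factor of the circuit, with a pileup of 866 over a local background of 164 in iPSC at chr17:35503637-35506057 and no peak at day 0; reads of the OG2 transgene and of the gene itself cannot be told apart there. Zfp42 had a pileup of 85 in iPSC (chr8:43305866-43307623) and Nanog, the homeobox factor that stabilises the naive state, 71 in iPSC (chr6:122706968-122707532), each with no peak at day 0. L1td1, which codes for an RNA-binding protein of pluripotent cells, reached 102, and Tdgf1, the co-receptor of Nodal, reached 82, again with no peak at day 0.

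A further 10 pluripotency genes were open at the start in both lists, and most of these stood higher in iPSC. Sox2 had a pileup of 114 in iPSC and 22 at day 0. Tfcp2l1, a factor of the naive state, had 48 in iPSC and 14 at day 0. Sall4, a zinc finger factor, had 35 in iPSC and 10 at day 0, and Esrrb, an orphan nuclear receptor, had 20 in iPSC and 9 at day 0. The pileup was higher in iPSC at 7 of the 10 shared start regions and lower at 3, whereas over all 10278 shared regions at gene starts it was higher in 46.4% and lower in 51.1%. Klf2 was among the 3, with 70 in iPSC and 95 at day 0. The starts of Klf4, Lin28b and Mybl2 had a day 0 peak alone. Klf4, a factor used for reprogramming that fibroblasts also express, had a day 0 pileup of 43, and Mybl2, a cell cycle factor, had 72. Lin28a, Dppa3 and Fgf4 had no peak at the start in either list.

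The same genes were also compared by the unique regions around them. Each unique region was assigned to the nearest protein-coding gene within 100 kb. The 30 pluripotency genes held 158 iPSC-only and 29 day 0-only regions, and 27 of them had more iPSC-only regions while 1 had more day 0-only regions. Over all 21883 genes, 6224 had more iPSC-only and 5356 more day 0-only regions. Nr5a2, a nuclear receptor that binds the Pou5f1 promoter, had 17 and 0, Esrrb 12 and 2, Zfp42 9 and 0, and Sox2 8 and 1, iPSC-only count first. Klf2 had 2 iPSC-only and 3 day 0-only regions, and Klf4 had 5 of each.

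Germline genes of the methylation-controlled class formed the most one-sided list. Of 15 such genes, 10 were open at the start in iPSC alone and 0 at day 0 alone, against 8.07% and 4.52% of all genes. Rnf17, a tudor domain protein of germ cells, had a pileup of 45 and a fold enrichment of 10.8 in iPSC (chr14:56402493-56403340). Sycp3, of the axis of meiotic chromosomes, had a pileup of 30, and Ddx4, the helicase of germ cells, and Mael, of the piRNA pathway, had 18 each. Sycp1 and Slc25a31 had 15 each, Mov10l1 14, Taf7l 13 and Hormad1 11, all in iPSC with no day 0 peak within 1 kb. These are weak peaks, and in the better-scored 50% of each list 3 of the 15 genes were open in iPSC alone. Stra8, the gatekeeper of meiosis, had 66 in iPSC, and its day 0 peak, of pileup 25, lay just beyond 1 kb from the start in the same region. Dazl, an RNA-binding protein of germ cells, was open in both, with 50 in iPSC and 38 at day 0, and its region was 3.25 times as wide in iPSC.

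The lists of the course between the end points held few of these germline peaks. The starts of the 15 genes were covered in 1 case on day 0, in 1 or 2 cases in each list of days 2 to 12, and in 11 cases in iPSC. Over all protein-coding genes the covered share ran between 45.4% at day 12 and 62.5% at day 2, with 55.7% at day 0 and 59.3% in iPSC. Pluripotency starts, by contrast, were covered in 13 of 30 cases at day 0, in 14 to 21 from day 2 to day 12 and in 24 in iPSC.

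Epithelial genes were open at the start in iPSC alone in 11 of 23 cases and at day 0 alone in 1. Cldn3, a claudin, had a pileup of 73 in iPSC (chr5:134985512-134986506), and Cdh1, E-cadherin, had 54 (chr8:106603235-106604318). Esrp1, a splicing regulator of epithelia, had 51, Cldn4 48, Ocln, of tight junctions, 40, and St14, a membrane protease, 31. Epcam, a cell adhesion protein, had 14 and Krt18 13, with no peak at day 0 for any of these genes. The exception was Pkp3, a plakophilin, with a day 0 pileup of 14 and no iPSC peak. With a window of 2.5 kb instead of 1 kb, 7 of the 23 were open in iPSC alone. The 23 genes held 49 iPSC-only and 23 day 0-only regions, and 9 of them had more iPSC-only regions while 3 had more day 0-only regions. Grhl2, a factor that opens epithelial enhancers, had 9 iPSC-only regions and 1 day 0-only region, whereas Cdh1 had 3 of each and Krt18 1 and 4.

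Fibroblast and mesenchyme genes leaned the other way. Of 35, the start was open at day 0 alone in 11, against 4.52% of all genes, and in iPSC alone in 2, Zeb1 and Tcf21. Most starts, 19 (54.3%), were open in both lists, near the 51.2% of all genes. S100a4, a calcium-binding protein of fibroblasts, had a day 0 pileup of 71 at chr3:90603629-90604925, Loxl1, which cross-links elastin, had 42, and Twist2, a mesenchymal factor, had 39, with no iPSC peak. Prrx1, a homeobox factor of limb and face mesenchyme, and Col6a1 had 32 each, Col3a1 29, and Col6a2, Dcn, Postn and Runx2 between 22 and 27. Lum, a proteoglycan, had 11. The 35 genes held 65 iPSC-only and 211 day 0-only regions, and 30 of them had more day 0-only regions while 2 had more iPSC-only regions. Fbn1, a fibrillin, had 1 iPSC-only and 13 day 0-only regions, and Runx1, a factor that holds fibroblast identity, had 3 and 15.

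Where a fibroblast gene kept an open start in both lists, the pileup was mostly lower in iPSC. It was lower at 13 of 18 shared start regions (72.2%) and higher at 2, with medians of 25 in iPSC and 44.5 at day 0. The pileup was lower at 51.1% of all shared gene start regions and at 71.4% of those of housekeeping genes, so the share itself does not set fibroblast genes apart from housekeeping genes. Thbs1, thrombospondin, had 19 in iPSC and 67 at day 0. Col1a1 had 20 in iPSC and 45 at day 0, Col1a2 had 15 and 36, and Twist1 had 12 and 36, iPSC value first. In bulk samples such as these, fewer cells of a type and less signal per cell cannot be told apart. Runx1 was not among the lowered genes, with 45 in iPSC and 44 at day 0, nor was Snai1, a repressor of epithelial genes, with 30 in each. Vim, the intermediate filament of mesenchymal cells, had 84 in iPSC and 110 at day 0.

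**Figure D2:**
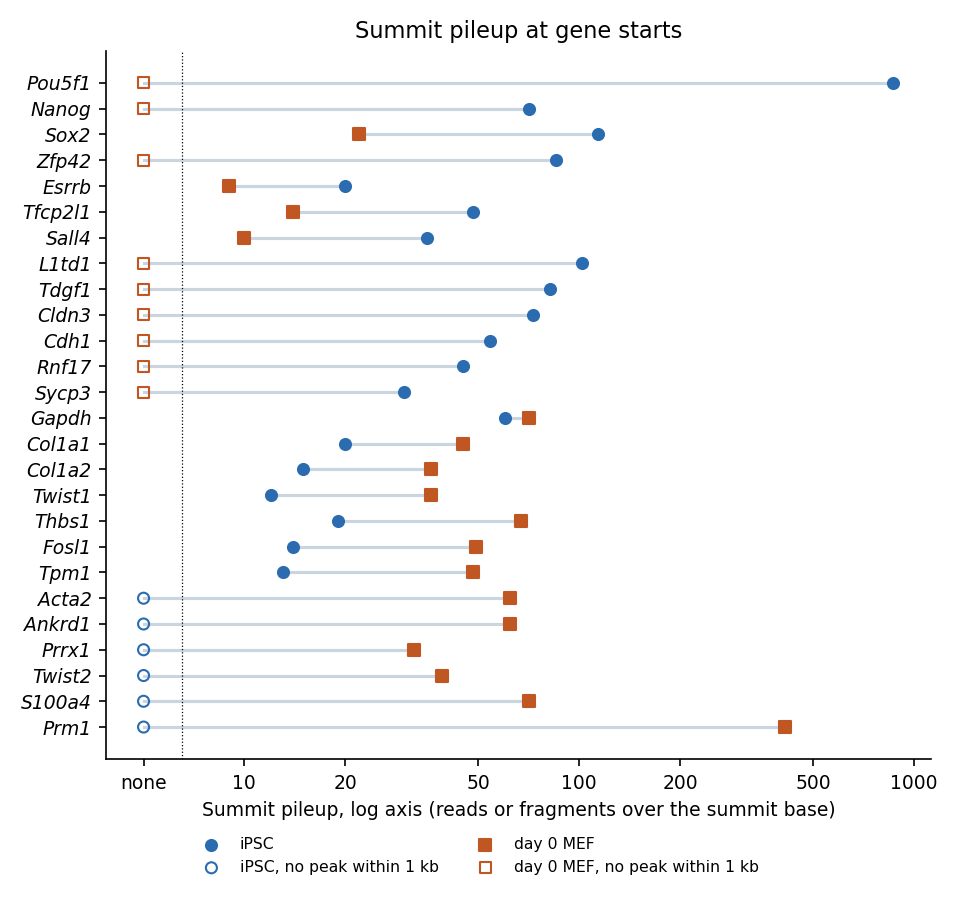
Pileup at the summit of the peak near the start of 26 named genes (log x axis; reads or fragments over the summit base), in iPSC (circles) and day 0 MEF (squares); where a shared region covers the start its values are drawn. Open symbols left of the dotted line mark a list with no peak within 1 kb, as for Pou5f1 at day 0 and Acta2 in iPSC.

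Contractile genes and AP-1 subunits mostly kept an open start, at a lower pileup in iPSC. Acta2, smooth muscle actin, and Ankrd1, a target of YAP and TEAD, each had a day 0 pileup of 62 and no iPSC peak, and Tpm2, a tropomyosin, had 41 at day 0 alone. Tpm1 had 13 in iPSC and 48 at day 0. Over the 12 shared start regions of the contractile list the pileup was lower in iPSC at 10, and the 20 genes held 24 iPSC-only and 95 day 0-only regions. Of 12 AP-1 genes, 11 were open in both lists, 0 in one list alone and 1, Batf, in neither. By rank of fold the median change at the shared starts was 14.1 points for AP-1 and 8.02 points for contractile genes, higher in iPSC and so opposite to the pileup. The AP-1 pileup was lower in iPSC at 9 of 11, with Fosl1 at 14 in iPSC and 49 at day 0, Fosl2 at 51 and 108, and Atf3 at 77 and 145. Jun was among the exceptions, with 128 in iPSC and 100 at day 0. Housekeeping genes gave a like count, lower in iPSC at 10 of 14 shared start regions, and Gapdh had 60 in iPSC and 71 at day 0. Actb had a day 0 peak of pileup 40 alone within 1 kb of the start, and a shared region inside the gene with 63 in iPSC and 51 at day 0.

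Signalling genes differed little in which starts were open. All 16 genes of FGF and ERK feedback and all 13 of the Hippo pathway had peaks of both lists at the start, against 51.2% of all genes, and 17 of 18 TGF-beta genes did. The exception was Inhba, a subunit of activin, with a pileup of 35 in iPSC alone. Of 11 Nodal pathway genes 4 were open at the start in iPSC alone, against 8.07% of all genes. These were the ligand Nodal (52), the inhibitor Lefty1 (21), the co-receptor Tdgf1 (82) and the processing protease Pcsk6 (29), pileup in brackets. The receptors Acvr1b, Acvr2a and Acvr2b and the effectors Smad2 and Foxh1 were open in both. With a window of 0 kb instead of 1 kb the count in iPSC alone was 1, and with 2.5 kb it was 3. Asking for coverage on days 8 to 12 as well left 2. Of 16 LIF and WNT response genes, 13 were open in both lists, Gbx2 (27) and Cdx1 (111) in iPSC alone and Tcf7 (14) at day 0 alone. Axin2, a feedback target of WNT signalling, had 78 in iPSC and 36 at day 0, and Socs3, the feedback inhibitor of LIF signalling, had 44 in iPSC and 91 at day 0.

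Genes of some other lineages were more often open at the start in iPSC alone than the 8.07% of all genes. At day 0 alone 4.52% of all genes were open, so few are looked for in lists this small. Of 11 trophoblast genes, Cdx2, Elf5, Tfap2c and Hand1 were open at the start in iPSC alone and 0 at day 0 alone. Of 12 neural genes, Sox1, Tubb3, Neurod1 and Olig2 were, and of 9 skeletal muscle genes Myod1, Myf5, Pax7 and Pax3 were, again with 0 at day 0 alone. Of 11 extraembryonic endoderm genes 3 were open in iPSC alone. Of 10 endothelial genes 1 was, near the share of all genes, and these genes held 26 iPSC-only and 26 day 0-only regions. Summed pileups over the whole lists were 331 in iPSC and 180 at day 0 for trophoblast, 248 and 81 for neural, and 104 and 22 for muscle genes. HOX genes were mixed, with 7 of 26 starts open in iPSC alone, 3 at day 0 alone (Hoxa3, Hoxa11 and Hoxc5) and 7 in both, at pileups from 11 to 29. None of 7 genes of the state that resembles the embryo at the first cleavage, and few of the 12 blood and macrophage genes (4 in iPSC, 3 at day 0), had a peak at the start.

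Testis genes had the highest enrichments on the day 0 side. The 5 day 0-only regions of highest fold enrichment at gene starts lay at Prm1 (25.4), Fabp9 (21.6), Hmgb4 (21.1), Zfp960 (19.6) and Tnp1 (18.5), against 13.9 at the highest iPSC-only one, Smim10l2a. Prm1 and Tnp1 code for the proteins that pack sperm DNA. Of 18 spermatid markers, 5 were open in iPSC and 8 at day 0, with summed pileups of 124 in iPSC and 1008 at day 0, and 5 were open at day 0 alone (Prm1, Prm2, Tnp1, Tnp2 and Odf1). None of these 5 was covered at days 2, 4 or 6. Smcp, Acrv1, Akap4, Gapdhs, Ldhc, Pgk2, Catsper1 and Crisp2 had no peak at the start in either list. Without regions nearest a spermatid marker 32761 day 0-only regions were left, and the part of testis cells in the day 0 list was not tested.

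**Figure D3:**
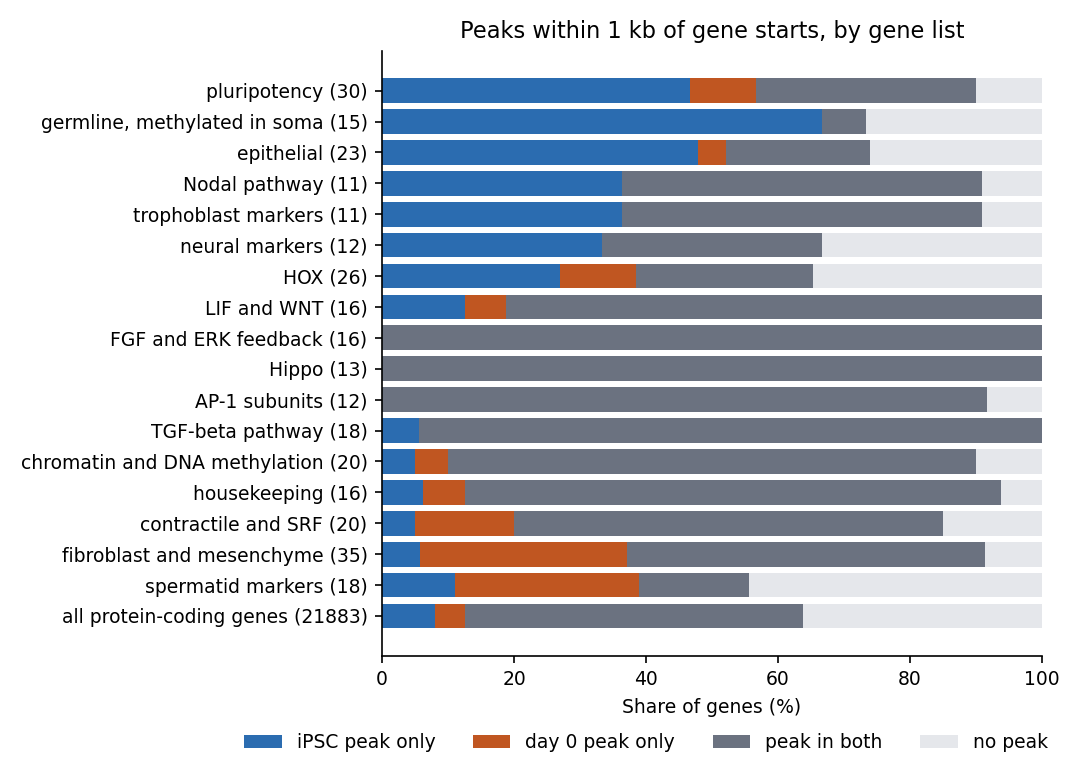
Share of the genes of 17 lists and of all protein-coding genes (x axis, percent; number of genes in brackets) with a peak within 1 kb of the start in iPSC alone, at day 0 alone, in both lists or in neither. Germline, epithelial and pluripotency genes were open in iPSC alone in 10 of 15, 11 of 23 and 14 of 30 cases, and fibroblast genes at day 0 alone in 11 of 35.

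MicroRNA loci divided in part along the same lines. Outside the 46 hairpins listed for this comparison, 11.2% of hairpins had a peak within 5 kb in iPSC alone and 12.4% at day 0 alone. All 13 hairpins of the miR-290 and miR-302/367 clusters were in iPSC alone, and since neighbours share a peak they stand for 2 loci. The miR-290 locus had a peak of pileup 80 at chr7:3220996-3222740, the last of 7 iPSC-only regions in a run from position 3192084 to 3222740, and the miR-302 hairpins lay within 5 kb of a peak of pileup 41 at chr3:127544447-127545701. The seed AAGUGCU, printed above for 4 members of these clusters, is that of the microRNAs that shorten the first gap phase of the cell cycle in embryonic stem cells. The epithelial miR-200a and miR-200b (31), miR-200c (25) and miR-205 (77) were near an iPSC peak alone, pileup in brackets. miR-200 family members repress Zeb1 and Zeb2.

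On the day 0 side stood miR-199a-1 (62), miR-199b (42), miR-214 (35) and miR-34a (47), each near a day 0 peak alone. miR-199a-2 and miR-214 lie in the gene Dnm3, where 7 day 0-only regions made a run of 45015 bp, chr1:162181234-162226248, that spans both hairpins. Inside this run lay 2 iPSC-only regions. miR-199a-2 was near peaks of both lists, with 22 in iPSC and 75 at day 0. These peaks did not overlap, at chr1:162213719-162214097 in iPSC and chr1:162215860-162218085 at day 0. miR-21a, abundant in fibroblasts, was near peaks of both lists, with 15 in iPSC and 97 at day 0. The epithelial miR-203 had a day 0 pileup of 14 and no iPSC peak. miR-141, next to miR-200c, was near different peaks of both lists. The iPSC peak, of pileup 25, lay at chr6:124718840-124719784 and the day 0 peak, of pileup 42, at chr6:124711819-124712975. The epithelial miR-429 and the mesenchymal miR-31, miR-221 and miR-222 had no peak within 5 kb in either list. The hairpins of the miR-17 cluster, which is active in dividing cells, were near peaks of both lists, with 53 in iPSC and 38 at day 0.

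Promoter sequence differed between the classes. RefSeq windows were at hand for 21237 starts. Windows open in iPSC alone had a median of 15 CpG, those open at day 0 alone 13, those open in both 22 and those open in neither 3. The E-box of ZEB and SNAI, CAGGTG or CACCTG, was found in 32.0% of the 1671 windows open in iPSC alone (29.7 to 34.3%) and in 14.1% of the 994 open at day 0 alone (interval up to 16.4%). It was in 16.1% of those open in both and 19.7% of all windows. Windows open in iPSC alone were somewhat richer in GC, with medians of 60.7% and 57.0%, so the shares were also taken within ranges of GC. At 50 to 60% GC the E-box was in 30.6% of windows open in iPSC alone and 17.5% of those open at day 0 alone, and at 60 to 70% GC in 38.2% and 17.7%. Windows open in neither list held it in 28.6% at 50 to 60% GC, close to those open in iPSC alone, and windows open in both in 15.4%. Of the 8 windows of epithelial genes open in iPSC alone 7 held it, as in Krt18 and Cldn4 above. It was also in Nanog and Zfp42.

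The AP-1 site TGANTCA had the opposite order. It was in 4.67% of windows open in iPSC alone (3.71 to 5.79%), 11.5% of those open at day 0 alone (9.55 to 13.6%) and 6.99% of all windows. Windows open in neither list held it in 9.99% (9.38 to 10.6%), which overlaps the interval at day 0 alone, and windows open in both in 4.05%. At 40 to 50% GC the shares were 5.76% in iPSC alone and 15.2% at day 0 alone, and at 60 to 70% GC they were 6.01% and 8.47%, with intervals that overlap. The TEAD site, GGAATG or CATTCC, was in 12.3% of windows open in iPSC alone, 17.1% of those open at day 0 alone and 13.6% of all. Windows open in neither list held it in 16.2%, within the interval at day 0 alone (14.8 to 19.6%), and windows open in both in 10.9%. The octamer was in 2.03% of windows open in iPSC alone and 1.51% of those open at day 0 alone. These intervals overlap (1.41 to 2.83% and 0.847 to 2.48%).

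The E-box CACGTG was about as frequent in windows open in iPSC alone, 8.80%, as in those open at day 0 alone, 9.56%. It was in 10.6% of windows open in both, 4.62% of those open in neither and 7.84% of all. In the germline list, however, it was in 8 of the 10 windows open in iPSC alone, and 9 of the 13 genes with a window had it, among them Ddx4, Mael, Sycp1 and Sycp3. The site for E2F factors, GGCGGGA or TCCCGCC, was in 5 of these 10 windows and 14.9% of all. A match to these letters is a description of the window and not of what is bound there.

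Within the shared regions the summits were ranked by fold enrichment in each list and the percentile in iPSC compared with that at day 0. The percentile was at least 25 points higher in iPSC for 2851 regions (17.1%) and at least 25 points lower for 2779 (16.7%), and 33.8% moved by 10 points or less. The ranks correlated across regions with a Spearman coefficient of 0.52, which describes 16650 regions of 1 list each and has no independent replicates. Order was kept best at gene starts, with a coefficient of 0.62, and less inside genes (0.25) and between genes (0.31). Of the regions in the top 25% at day 0, 55.1% were in the top 25% in iPSC and 9.46% in the lowest 25%.

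**Figure D4:**
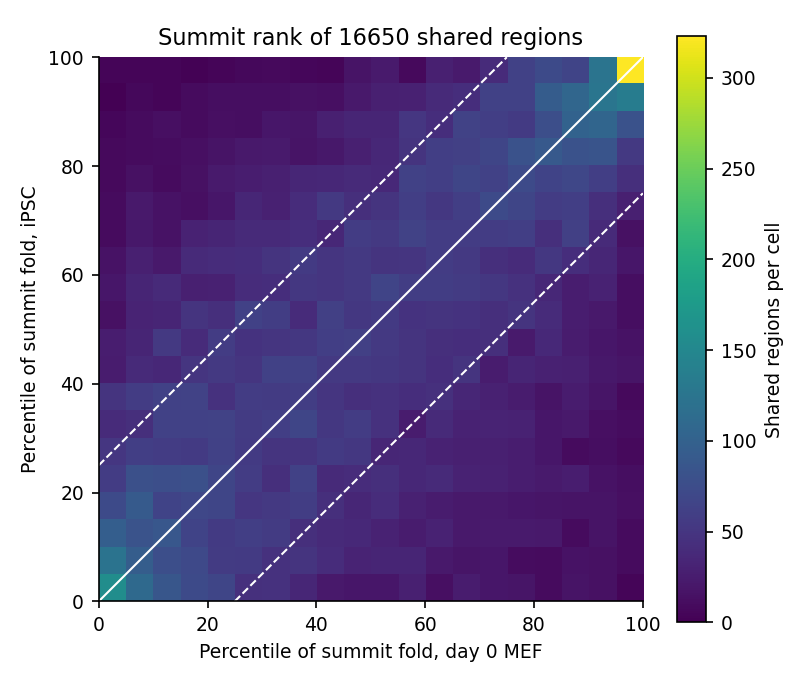
Percentile of summit fold enrichment among the 16650 shared regions in iPSC (y axis) against that at day 0 (x axis), as the number of regions in cells of 5 points; the solid line marks equal ranks and the dashed lines a change of 25 points. Regions crowd at both ends of the diagonal, with 2851 above the upper and 2779 below the lower dashed line.

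The place of the regions that moved up differed from that of those that moved down. Gene starts held 60.7% (58.9 to 62.5%) of those higher in iPSC and 41.6% (39.7 to 43.4%) of those lower. Put the other way, 16.8% of shared regions at gene starts were higher and 11.2% lower, while 18.7% of those inside genes were higher and 24.5% lower, and 16.5% of those between genes were higher and 26.4% lower. GC content moved with this at starts. Among shared starts in the lowest of 5 equal groups by window GC, 13.7% were higher and 13.7% lower in iPSC, and in the highest group 20.4% were higher and 8.09% lower. The part of GC bias between libraries in these ranks was not tested.

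Fold enrichment divides the pileup by a local background, so regions were also ranked by pileup alone, where 15.3% were at least 25 points higher and 15.1% at least 25 points lower in iPSC. Of the regions higher by fold, 90.5% were also higher by pileup rank and 51.2% by at least 25 points. Of those lower by fold, 89.9% were lower by pileup rank and 53.8% by at least 25 points. At some fibroblast genes the local background was higher at day 0, and the fold rank did not drop with the pileup. At Col1a1 the local background was 3.41 in iPSC and 14.6 at day 0, and the fold was 4.76 in iPSC and 2.95 at day 0 although the pileup was 20 in iPSC and 45 at day 0. For the fibroblast list the median change was -2.13 points by fold and -23.7 points by pileup, and for the pluripotency list 0.89 points by fold and 39.8 points by pileup. Over all genes with a shared start region the medians were 2.14 points by fold and -0.30 points by pileup.

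Of 11084 genes with a shared region at the start, 16.8% were at least 25 points higher and 11.5% at least 25 points lower in iPSC. The start that moved up most was that of Pak1, a kinase of the actin skeleton, which gained 95.5 points, with a fold of 10.7 in iPSC and 2.66 at day 0 and a pileup of 63 in iPSC and 21 at day 0. Ak7 (93.5), an adenylate kinase of cilia, had a pileup of 72 in iPSC and 10 at day 0. Slc30a10 (86.0), a manganese exporter, had 91 in iPSC and 9 at day 0, and Camsap3 (81.6), which anchors microtubules in epithelial cells, had 51 in iPSC and 11 at day 0. Gm4861, Slc26a4, Nup35, Acer2, Arhgap42 and Gstm2 made up the rest of the 10 and gained 82.1 to 92.1 points. For Camsap3, Gm4861 and Nup35 no start is listed and a gene end was used. In all 10 the pileup was higher in iPSC.

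The largest drop was at Trf, transferrin, for which no start is listed and a gene end was used. It changed by -89.7 points, with a pileup of 10 in iPSC and 49 at day 0. At a listed start the largest drop was at Ddx19b, with -86.4 points. Mrtfb changed by -84.7 points at the start printed above, with 10 in iPSC and 73 at day 0, and its region there was 293 bp wide in iPSC and 1138 bp at day 0. Pclaf, a factor of DNA replication, changed by -75.7 points with 12 in iPSC and 45 at day 0, and Mt1, a metallothionein, by -75.1 points with 37 in iPSC and 57 at day 0. Ddx19b, Zfp108, Pld1, Kctd17 (a gene end), Ccdc43 and Slc46a3 made up the rest, from -86.4 to -77.6 points. Ranked by pileup, several of these changes were much smaller, at -20.4 points for Mt1, -25.7 for Slc46a3, -26.7 for Pld1, -37.4 for Ccdc43, -46.1 for Ddx19b and -47.2 for Zfp108, and Pak1 gained 59.8 and Arhgap42 41.9 points. Away from gene starts the largest drops were larger still. A region inside Arid1b, a subunit of a chromatin remodeller, at chr17:5138673-5139509 changed by -98.3 points with a pileup of 15 in iPSC and 122 at day 0. One inside Gli2, an effector of hedgehog signalling, at chr1:118976342-118977116 changed by -98.2 points, with 12 in iPSC and 92 at day 0. Regions near Jag2, Enc1 and Spred2 changed by -93.9 to -92.4 points.

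Some members of the gene lists changed rank by fold while their pileups were close, and others changed in both. Tet1, an enzyme that oxidises methylated DNA, changed by -56.3 points with a pileup of 30 in iPSC and 34 at day 0. Socs3 changed by -53.1 points and Atf3 by -39.9 points, with lower pileups in iPSC as given above. Smad7, the inhibitor of TGF-beta signalling, gained 47.9 points with 71 in iPSC and 67 at day 0, and Dusp5, a phosphatase of ERK, by 62.3 points with 73 in iPSC and 62 at day 0. Mafk (65.9), Ltbp2 (65.6) and Cald1 (61.3) gained points by fold while their pileups were lower in iPSC, at 36, 27 and 39, against 48, 38 and 57 at day 0.

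A shared region was at least 2-fold wider in iPSC in 1360 cases (8.17%) and at least 2-fold narrower in 1282 (7.7%), and the median ratio was 0.98. Of genes with a shared region at the start, 5.4% were at least 2-fold wider and 5.61% at least 2-fold narrower. At gene starts, counted by region, 5.67% were wider and 5.57% narrower, and between genes 12.1% and 11.2%. Regions that gained rank were wider in iPSC, with medians of 871 bp in iPSC and 693 bp at day 0, and those that lost rank were narrower, with 640 bp and 846 bp. Over all shared regions the change in rank and the log2 ratio of widths correlated at 0.28 (Spearman).

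The widest gain was at a gene end of Fsbp, a DNA-binding protein, where the region was 3733 bp in iPSC and 323 bp at day 0. Chl1, a neural adhesion protein, measured 2016 bp in iPSC and 327 bp at day 0, and Ackr3, a chemokine receptor, 2076 bp and 343 bp. Pou3f2, a neural POU factor, measured 2795 bp in iPSC and 487 bp at day 0. Gjc1, Pcsk2, Mtus1, Ptprj with Gm46752 and Prkaa1 grew between 5.64 and 6.16 times, at a gene end for Gjc1 and Mtus1. The narrowest against day 0 was Vps37b, at a gene end, with 278 bp in iPSC and 1920 bp at day 0. Msx1, a homeobox factor of mesenchyme, measured 304 bp in iPSC and 1335 bp at day 0, and Timp1, a protease inhibitor that fibroblasts secrete, 344 bp and 1476 bp. Away from starts a region nearest Tgfb2 measured 292 bp in iPSC and 1996 bp at day 0.

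The regions that changed rank between the end points were followed in the lists between them. Ranks were taken among the 8873 shared regions that had a peak in all 8 lists, of which 1417 were higher and 1063 lower in iPSC. The higher ones had a median percentile of 19.2 on day 0, of 28.3 to 33.5 on days 2 to 6, of 42.4 to 48.5 on days 8 to 12, and of 62.2 in iPSC. The lower ones had a median of 65.4 on day 0, of 47.6 to 51.4 on days 2 to 6, of 31.2 to 37.7 on days 8 to 12, and of 15.4 in iPSC. The end values follow from how the groups were chosen. Regions picked for a large difference between the day 0 and iPSC lists tend to fall between them in any other list. The middle medians, and the shares nearer to iPSC below, therefore depend in part on this choice, and its part was not tested. The middle lists set which regions were kept, since a peak in each was asked for, but their ranks were not used. At day 6 the percentile lay nearer to the iPSC than to the day 0 value in 32.4% of the higher and 34.5% of the lower regions, and at day 8 in 53.4% and 52.1%. At day 12 the shares were 59.6% and 57.7%. Over all 8873 regions the Spearman coefficient with iPSC did not rise along the course. It was 0.57 for day 0, 0.58 for day 4, 0.51 for day 6, 0.58 for day 10 and 0.52 for day 12. The coefficient with day 0 was 0.72 for day 2 and 0.41 for day 12.

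**Figure D5:**
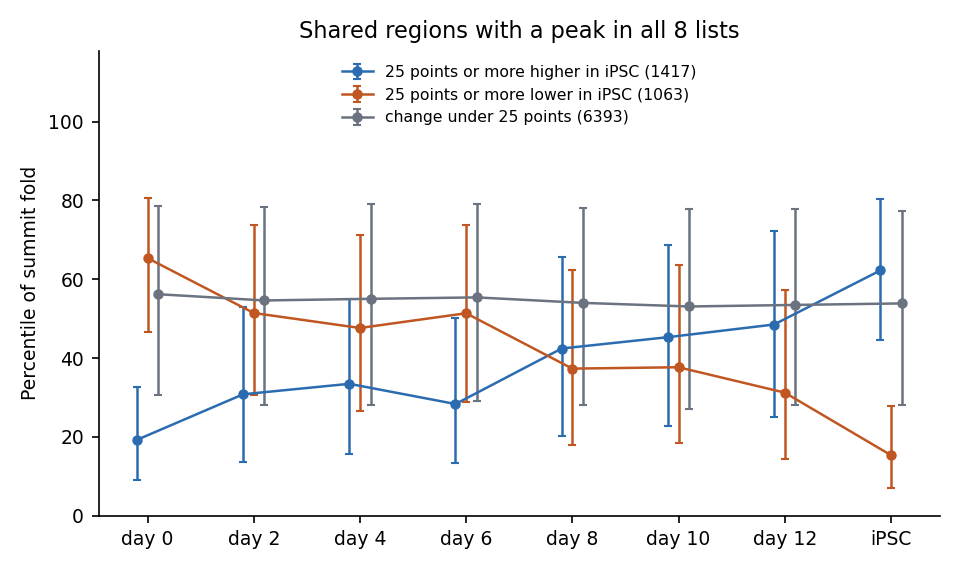
Median percentile of summit fold enrichment (y axis; bars span the middle 50% of regions) at day 0, days 2 to 12 and in iPSC (x axis), for shared regions with a peak in all 8 lists that were 25 points or more higher in iPSC, 25 points or more lower, or changed by less. The first 2 groups cross between day 6 and day 8, at medians of 28.3 and 51.4, then 42.4 and 37.3.

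The unique classes differed in how many of their regions were covered along the course. Of the day 0-only regions, 69.9% (69.4 to 70.4%) were covered in at least one list of days 2, 4 and 6, and 19.3% in one of days 8, 10 and 12. Of the iPSC-only regions, 24.9% (24.4 to 25.4%) were covered in a list of days 8, 10 and 12, and 19.4% in one of days 2, 4 and 6. The share of all regions covered by the same lists was not taken, so these shares have no base to be read against. Of the 1767 gene starts open in iPSC alone, 57.8% were covered at day 2 and 45.2% at day 8. At day 10 the share was 48.9% and at day 12 it was 25.7%. Of the 989 open at day 0 alone, 85.0% were covered at day 2 and 51.2% at day 8. Their share was 54.1% at day 10 and 23.6% at day 12. The day 12 list covered the fewest gene starts of all lists and the day 2 list the most. This bears on these shares, and its part in them was not tested.

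Unique regions also came in runs. Neighbouring regions of one class were joined up to the distance commonly used to join enhancers into super-enhancers. This gave 203 runs of 5 or more iPSC-only regions and 202 of day 0-only regions, with 3.53% and 3.38% of the class. Regions of the other class could lie inside a run. Only 110 of the iPSC-only and 113 of the day 0-only runs held none. The longest iPSC-only runs held 11 regions beside Nudt4, 10 at Macf1 and 10 at Atg5 and Prdm1, which codes for a transcriptional repressor needed for primordial germ cells. Runs of 8 lay at Spry2, a feedback inhibitor of ERK signalling, and Tcf7l1, the repressor that CHIR99021 is known to release. Long day 0-only runs held 10 regions at Nxn and 10 at Trio, 8 at Zfp469, and 7 each at Adam12, a protease of mesenchyme, and Hmga2, a chromatin protein of embryonic mesenchyme. The runs at Nudt4, Tcf7l1 and Trio each had 3 regions of the other class inside, and those at Adam12 and Hmga2 had 0.

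Many genes open at the start in both end points had regions of both unique classes around them. Of these 11207 genes, 4449 had at least 1 assigned region of each unique class and 1349 at least 3 of each. A further 1772 had iPSC-only and no day 0-only regions, 1644 the reverse, and 3342 had neither. The genes named here were chosen after the values were seen and are long. The part of gene length in these counts was not tested. Auts2 had 26 iPSC-only and 22 day 0-only regions, Magi1 30 and 18, Foxp1 18 and 22, Lpp 18 and 30, and Rbms3 17 and 34, iPSC-only count first. The starts of these genes were open in both lists.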

How the data were processed

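ATAC-seq peak lists were analysed. The submitters' processing notes name the build mm10 and, with no role or order, MACS2 2.1.2, SAMtools, Bowtie2 2.2.5, deepTools 3.4.3 and fastp 0.20.1. Any Tn5 shift, peak settings and how 2 samples became 1 list are not given in the sources used here. Each deposited peak carries the authors' peak score, its fold enrichment at the summit over a local background, and its -log10 p-value and -log10 q-value, as MACS2 writes them. Fold and p-value together gave back the pileup and the local background, to within 0.001 in 100% of iPSC and 99.998% of day 0 peaks.

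Overlapping peaks were joined, and shared regions ranked from 0 to 100 by their highest fold, with summed widths compared. A change counted at 25 points or at 2-fold width. Gene starts, gene ends and sequences came from RefSeq (GRCm38.p6), with 372 of 373 listed genes matched. Steps were tested on simulated lists. Python 3.11.15, NumPy 2.4.6, pandas 2.3.3, SciPy 1.17.1 and Matplotlib 3.10.9 were used. The samples were grouped by their titles, and no test was run because each stage has 1 list.

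The gene lists and members were chosen with earlier results of these data known. The microRNA and motif lists were written before values at those loci were viewed, but with the other results known. Genes were named by rule: a fixed set of identity genes, the largest rank and width changes at gene starts and elsewhere, listed genes with the largest change or with an open start in 1 list, the strongest unique starts and the longest runs. Printed promoters, further list members and the named genes with regions of both unique classes were picked after their values were seen. Alternatives covered the peak threshold, overlap, ranking, width and gene window.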

Additional observations from a re-analysis of the deposited data

How the results depend on the processing

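Of 44 alternative values for the main counts, 35 lay within 1.5 times of the reported count. With the better-scored 50% of each list there were 15636 iPSC-only, 15787 day 0-only and 9098 shared regions. A change of at least 40 points left 1232 regions higher and 1411 lower in iPSC, and a 1.5-fold width change gave 2887 wider and 3087 narrower regions. Asking that an iPSC-only region also be covered on day 8, 10 or 12 left 8140 regions and 1078 gene starts, an alternative chosen after seeing the data. Ranked by pileup in place of fold, Mafk changed by -13.4, Ltbp2 by -17.0 and Cald1 by -17.6 points, the reverse of their direction by fold, and the local background at each was higher at day 0. Of the 30 pluripotency genes, 9 were open in iPSC alone when genes without a listed start were left out, also an alternative chosen after seeing the data. No paired analysis was possible because each stage has 1 deposited list with no values per sample. Depth limits weak peaks: about a pileup of 10 the counting interval runs from 4.80 to 18.4, so the absence of a weak peak from one list is not evidence of closed chromatin.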
